A study of Mus musculus with 12 samples.

Results

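Fgf5, Otx2, Pou3f1, Zic2 and Zic5 are genes whose transcripts mark the formative and primed states of pluripotency. They were selected by symbol, with earlier results of these data known. All 5 were among the 23412 genes counted, and they are described here in 12 RNA-Seq libraries of mouse embryonic stem cells (mESCs). The study asked how HMGN1 and HMGN2, small proteins that bind nucleosomes, act on transcription. It used v6.5 mESCs, a male line kept on gelatin in serum with LIF, of 4 genotypes: WT, a single knockout of either gene (Hmgn1-/- or Hmgn2-/-), and the double knockout Hmgn1-/-Hmgn2-/-, with 3 biological replicates each and RNA taken after 48 h. CRISPR-Cas9 editing left a homozygous single-base deletion in Hmgn1 and a homozygous single-base insertion in Hmgn2. Cells of the Hmgn2-/- line, edited again at Hmgn1, gave the double knockout, which therefore also carries whatever that line had acquired. Each knockout line grew from a single edited cell, and genotype and clone therefore cannot be told apart in any comparison below.

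Mouse pluripotency runs from a naive state, that of the preimplantation epiblast, through a formative state to a primed state, that of the postimplantation epiblast. mESCs in serum and LIF are mixed, mostly naive, with some cells that express genes of the later states. FGF signalling through ERK promotes the exit from the naive state, and LIF opposes it. On this exit OTX2 and the POU factor OCT6, the product of Pou3f1, redirect OCT4 to new enhancers, Fgf5 is switched on, and the zinc finger factors ZIC2 and ZIC5 are induced with them.

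The edited genes were read first. Hmgn1 was at 662, 599.8 and 614 TMM-scaled CPM (counts per 1000000 counts of the library, with totals corrected for composition by edgeR) in WT mESCs. It was at 138, 139 and 141 CPM in Hmgn1-/- mESCs, at 545, 556 and 639.7 CPM in Hmgn2-/- mESCs, and at 21.5, 19.9 and 21.4 CPM in the double knockout. Hmgn2 was at 137, 123 and 119.6 CPM in WT mESCs and at 105, 113 and 109 CPM in Hmgn1-/- mESCs. It was at 50.7, 54.5 and 53.7 CPM in Hmgn2-/- mESCs and at 53.8, 50.5 and 54.2 CPM in the double knockout. Each edited gene was lower in the lines labelled as lacking it than in the others, in all 12 libraries, although counts over a whole gene do not read a change of a single base. The markers of mouse ES cells were abundant in every genotype. Pou5f1 averaged 1976, 1868, 1881 and 1835 CPM in WT, Hmgn1-/-, Hmgn2-/- and Hmgn1-/-Hmgn2-/- mESCs, and Sox2 averaged 539, 584, 530.2 and 512 CPM.

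Library totals ran from 17337908 counts in Hmgn2-/- replicate 3 to 31448468 counts in WT replicate 1. Hmgn2-/- replicate 3 was also the library least like the others of its genotype. Its counts differed from those of replicates 1 and 2 with a chi-square of 37.5 and 21.2 per degree of freedom, against 3.44 to 12.3 for the other 10 pairs of replicates, and results are given with and without it where it matters. A gene counts as past the threshold when its adjusted p is below 0.01 and its log2 fold change (FC) is 1 or more in size, where edgeR gives p by its quasi-likelihood test and Benjamini-Hochberg adjustment runs over every gene tested. The 3 comparisons with WT share the same WT libraries.

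Fgf5 encodes a secreted FGF ligand and is the classical transcript of the postimplantation epiblast. It lies at chr5:98254184-98277030 on the plus strand of GRCm38 in GENCODE M21. RefSeq's promoter windows hold 300 bases, 250 before a gene's start and 50 from the start on, and 3 of the 5 genes had such a window, Pou3f1 and Zic2 not. They are shown because all 5 genes had a negative log2 FC in each comparison with WT. Capitals mark matches to TATAAA or GGGCGG on either strand, among 5 short motifs searched on both strands: the TATA box as TATAAA, the GC box as GGGCGG, the CCAAT box, the POU octamer as ATGCAAAT and a core bound by OTX proteins as TAATCC. The Fgf5 window is chr5:98253934-98254233 on the plus strand of GRCm38.p6:
Fgf5: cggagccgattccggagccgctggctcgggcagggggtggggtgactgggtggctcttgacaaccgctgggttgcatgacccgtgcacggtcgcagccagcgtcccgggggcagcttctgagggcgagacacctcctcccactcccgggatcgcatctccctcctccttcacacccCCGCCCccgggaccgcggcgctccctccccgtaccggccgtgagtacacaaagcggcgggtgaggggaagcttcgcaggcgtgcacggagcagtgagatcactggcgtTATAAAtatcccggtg
This window had a GC content of 68.3% and 29 CpG dinucleotides, a number reached by 12.9% of the 32851 windows of that length, whose median was 7. It held GGGCGG on the reverse strand from base −74 and TATAAA from base 35, counted from 1 at the start. Of all windows, 13.6% held TATAAA and 35.7% held GGGCGG on either strand.

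Fgf5 was at 5.35, 5.09 and 3.68 CPM in the 3 WT libraries, from 171, 90 and 106 counts. It was at 0.307, 0.143 and 0.183 CPM in Hmgn1-/- mESCs, from 8, 3 and 4 counts. In Hmgn2-/- mESCs the levels were 0.460, 0.416 and 0.119 CPM, from 12, 11 and 2 counts. In the double knockout they were 0.3199, 0.226 and 0.228 CPM, from 10, 5 and 6 counts. Every knockout library was far below every WT library, and the 3 knockouts overlapped. Pooled over a genotype's libraries, the exact Poisson 95% intervals, which cover counting error only, were 4.26 to 5.24 unscaled CPM for WT. They were 0.122 to 0.359 for Hmgn1-/-, 0.232 to 0.529 for Hmgn2-/- and 0.163 to 0.403 for Hmgn1-/-Hmgn2-/- mESCs. Against WT, Fgf5 fell with a log2 FC of −4.40 (SE 0.32, adjusted p = 3.95e-07) in Hmgn1-/- mESCs. The log2 FC was −3.69 (SE 0.33, adjusted p = 3.59e-05) in Hmgn2-/- mESCs and −4.13 (SE 0.29, adjusted p = 2.04e-07) in the double knockout. Among the genes tested, ordered from the most negative log2 FC, Fgf5 stood at rank 20 of 13917, rank 46 of 14047 and rank 19 of 14128. Without Hmgn2-/- replicate 3 the log2 FC in Hmgn2-/- mESCs was −3.40. In bulk RNA, fewer cells that express a gene and less RNA in each cell cannot be told apart, here and for every gene below.

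**Figure D1:**
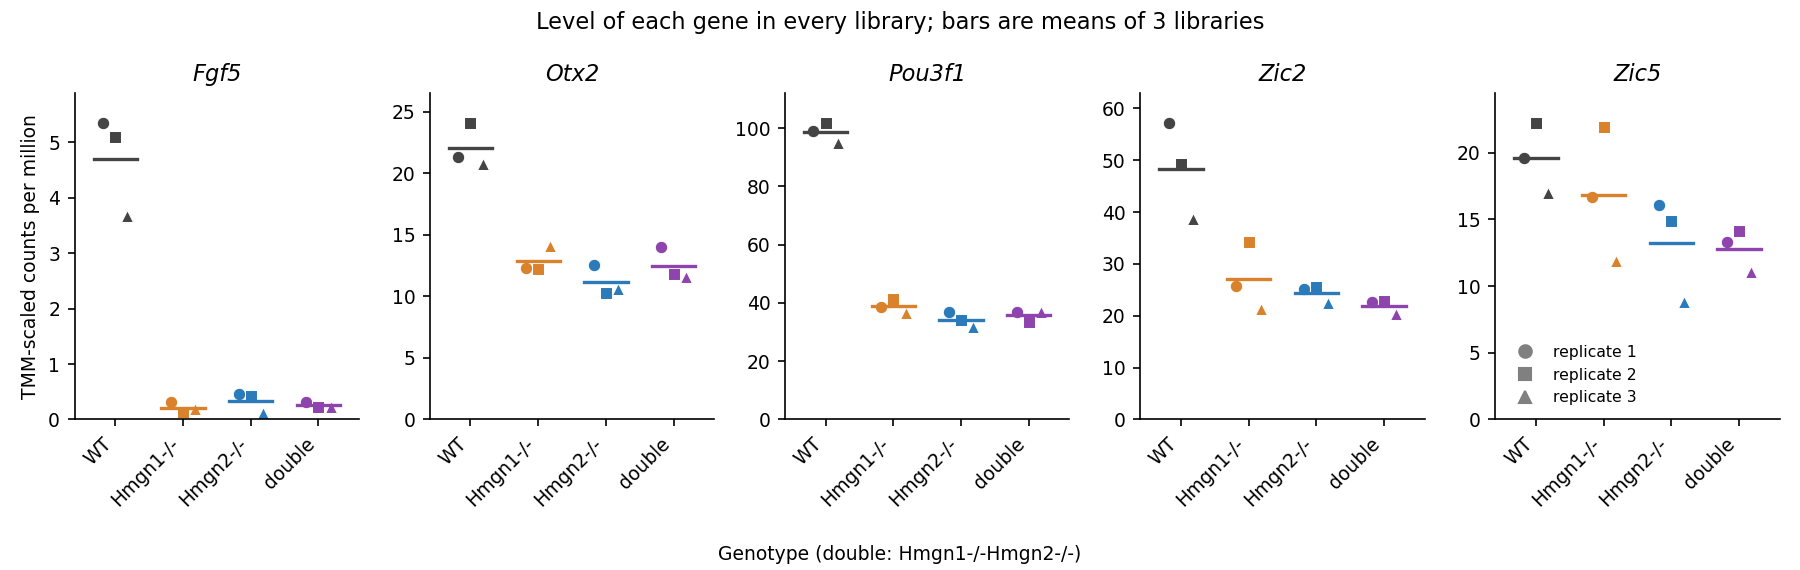
TMM-scaled CPM of the 5 genes in each of the 12 libraries, on a linear axis from 0, by genotype; markers give the replicate number and horizontal bars the mean of 3 libraries. Fgf5, Otx2, Pou3f1 and Zic2 were lower in all 9 knockout libraries than in the 3 WT libraries, while Zic5 overlapped WT in Hmgn1-/- mESCs.

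Otx2 encodes a homeodomain transcription factor of the epiblast and anterior neural tissue that helps cells leave the naive state. It lies at chr14:48657677-48673819 on the minus strand. The most upstream of its 4 promoter windows is chr14:48667595-48667894 on the minus strand of GRCm38.p6, with capitals as above:
Otx2: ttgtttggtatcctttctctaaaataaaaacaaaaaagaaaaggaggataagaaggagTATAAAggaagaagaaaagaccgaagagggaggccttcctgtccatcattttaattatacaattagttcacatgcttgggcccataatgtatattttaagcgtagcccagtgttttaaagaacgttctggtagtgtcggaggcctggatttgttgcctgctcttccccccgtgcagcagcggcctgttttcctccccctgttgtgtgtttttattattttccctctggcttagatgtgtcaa
This window lies inside the gene as annotated in GENCODE M21, not at the annotated start. Its bases are counted from the window's own start. The window had a GC content of 41.7% and 6 CpG dinucleotides, and TATAAA began at base −192. Otx2 overlaps Otx2os1 and Gm49154 and shares 322 exonic bases with them. Otx2os1 had 0 to 3 counts in each library, and Gm49154 was not analysed here. Sense and antisense reads cannot be told apart in these counts, since the strand setting is not given in the sources used here.

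Otx2 was at 21.4, 24.1 and 20.8 CPM in WT mESCs. It was at 12.3, 12.3 and 14.1 CPM in Hmgn1-/- mESCs, at 12.6, 10.3 and 10.6 CPM in Hmgn2-/- mESCs, and at 14.0, 11.8 and 11.6 CPM in the double knockout. All 9 knockout libraries were below the lowest WT library, and the knockouts overlapped each other. As a share of its WT mean, Otx2 kept 58.5% on loss of Hmgn1, 50.5% on loss of Hmgn2 and 56.5% on loss of both. Its log2 FC was −0.77 (SE 0.10, adjusted p = 8.22e-05), −0.97 (SE 0.12, adjusted p = 2.64e-04) and −0.81 (SE 0.11, adjusted p = 6.86e-05) in that order. All 3 values were short of the fold limit. The gene passed it in Hmgn2-/- mESCs without WT replicate 3 (−1.02) or without Hmgn2-/- replicate 1 (−1.07), and had −0.94 without Hmgn2-/- replicate 3.

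Pou3f1 encodes OCT6, a POU domain factor of the epiblast, neural cells and Schwann cells. It is a gene of a single exon at chr4:124656807-124660655 on the plus strand, and Gm2164, which was not analysed here, overlaps 330 of its exonic bases. It was at 99.0, 101.7 and 94.9 CPM in WT mESCs, with a coefficient of variation of 3.49%, the smallest of the 5 genes in WT. It was at 38.7, 41.4 and 36.6 CPM in Hmgn1-/- mESCs, at 36.8, 34.1 and 31.7 CPM in Hmgn2-/- mESCs, and at 36.9, 33.6 and 36.8 CPM in the double knockout. The gap between WT and each knockout was thus many times the spread within genotypes, while the 3 knockouts overlapped. Pou3f1 fell to 39.5%, 34.7% and 36.3% of its WT mean, with a log2 FC of −1.34 (SE 0.07, adjusted p = 1.99e-08), −1.51 (SE 0.09, adjusted p = 2.02e-06) and −1.46 (SE 0.07, adjusted p = 3.97e-09). These were the smallest adjusted p-values of the 5 genes in each comparison, although Fgf5 changed more. Without Hmgn2-/- replicate 3 the log2 FC in Hmgn2-/- mESCs was −1.47.

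Zic2 encodes a zinc finger transcription factor that acts at enhancers of mESCs and in the forebrain. It lies at chr14:122475435-122479852 on the plus strand. It was at 57.2, 49.3 and 38.7 CPM in WT mESCs and at 25.7, 34.2 and 21.4 CPM in Hmgn1-/- mESCs. In Hmgn2-/- mESCs it was at 25.2, 25.6 and 22.4 CPM, and in the double knockout at 22.7, 22.8 and 20.4 CPM. No knockout library reached the lowest WT library, but the WT libraries themselves spread more than those of Otx2 or Pou3f1 (coefficient of variation 19.1% against 8.05% and 3.49%). The log2 FC was −0.83 (SE 0.16, adjusted p = 0.00115) in Hmgn1-/- mESCs and −0.98 (SE 0.14, adjusted p = 5.91e-04) in Hmgn2-/- mESCs, short of the fold limit. In the double knockout Zic2 fell past the threshold, with −1.14 (SE 0.12, adjusted p = 1.17e-05). These calls turn on single libraries. Without WT replicate 1 the double knockout gave −0.99, and without Hmgn1-/- replicate 2 Hmgn1-/- mESCs gave −1.04, past the threshold. Without Hmgn1-/- replicate 1 the adjusted p in Hmgn1-/- mESCs was 0.0116. Zic2 also passed the threshold in Hmgn2-/- mESCs without WT replicate 3 (−1.12), Hmgn2-/- replicate 1 (−1.001) or Hmgn2-/- replicate 2 (−1.01), and had −0.92 without Hmgn2-/- replicate 3.

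Zic5 encodes a zinc finger factor of the same family and lies head to head with Zic2, at chr14:122456795-122465677 on the minus strand, with 9757 bases between the annotated genes. Its promoter window is chr14:122465609-122465908 on the minus strand of GRCm38.p6, with capitals as above:
Zic5: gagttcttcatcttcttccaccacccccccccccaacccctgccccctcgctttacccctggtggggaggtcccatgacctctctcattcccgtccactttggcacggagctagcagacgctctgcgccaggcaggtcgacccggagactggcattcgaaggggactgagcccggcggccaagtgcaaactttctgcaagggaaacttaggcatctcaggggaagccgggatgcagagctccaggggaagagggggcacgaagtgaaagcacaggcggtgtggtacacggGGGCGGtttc
The window had a GC content of 62.7% and 15 CpG dinucleotides, and GGGCGG began at base 41. None of the 3 windows held the CCAAT box, which 37.4% of all windows held, the octamer (1.74%) or the OTX core (7.06%). That says only that these letters are not in these 300 bases.

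Zic5 was at 19.6, 22.2 and 16.98 CPM in WT mESCs and at 16.7, 22.0 and 11.9 CPM in Hmgn1-/- mESCs, so these genotypes overlapped. It was at 16.1, 14.9 and 8.80 CPM in Hmgn2-/- mESCs and at 13.3, 14.1 and 11.04 CPM in the double knockout. The highest Hmgn2-/- library lay just under the lowest WT library. The log2 FC was −0.21 (SE 0.17, adjusted p = 0.395) in Hmgn1-/- mESCs, with a 95% interval of −0.57 to 0.16. It was −0.53 (SE 0.19, adjusted p = 0.0773) in Hmgn2-/- mESCs and −0.60 (SE 0.12, adjusted p = 0.00202) in the double knockout, which was under the adjusted p limit but short of the fold limit. Without Hmgn2-/- replicate 3 the value in Hmgn2-/- mESCs was −0.32. Leaving out Hmgn1-/- replicate 3 brought Zic5 in Hmgn1-/- mESCs to −0.02 and leaving out Hmgn1-/- replicate 2 brought it to −0.44. In the double knockout the adjusted p was 0.0108 without WT replicate 2, 0.0134 without Hmgn1-/-Hmgn2-/- replicate 3 and 0.0437 with all 12 libraries in a single fit.

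In Hmgn1-/- mESCs 2 of the 5 genes, Fgf5 and Pou3f1, fell past the threshold, as did 5.08% of the 13917 genes tested. At the adjusted p alone 4 of 5 were lower, against 10.1% of genes, and 4 of 5 were lower in every knockout library than in every WT library, against 21.3%. In Hmgn2-/- mESCs the same 2 genes fell past the threshold, against 4.38% of 14047 genes. There 4 of 5 were lower at the adjusted p alone, against 6.66%, and 5 of 5 did not overlap WT, against 19.2%. In the double knockout Fgf5, Pou3f1 and Zic2 fell past the threshold, 3 of 5 against 5.00% of 14128 genes. All 5 were lower at the adjusted p alone, against 10.2%, and all 5 did not overlap WT, against 21.7%. The median log2 FC of the 5 genes was −0.83, −0.98 and −1.14 in the 3 comparisons, where the median of all genes tested was 0.0040, 0.013 and 0.0037. Since the 5 genes were chosen with earlier results of these data known, these shares and medians describe them and do not test them as a set.

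**Figure D2:**
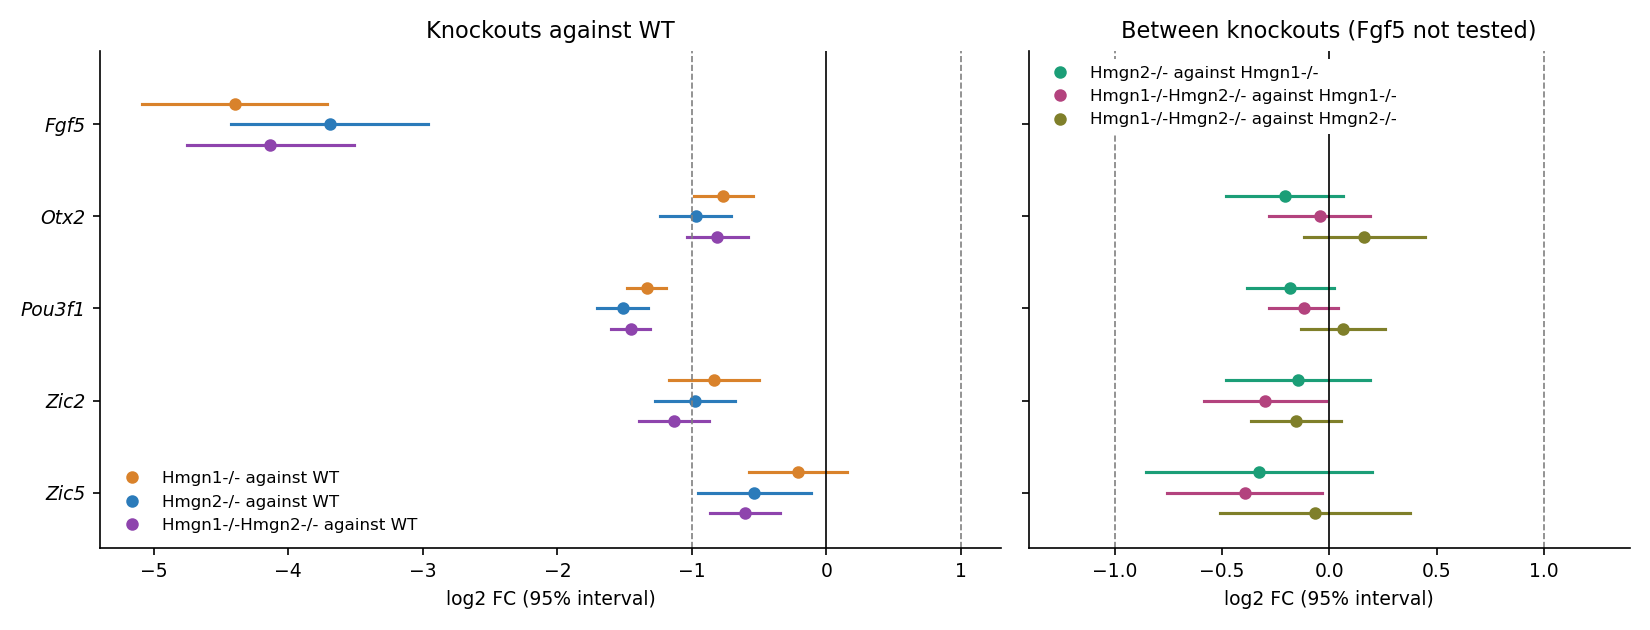
log2 FC of each gene with its 95% interval from edgeR, for the knockouts against WT (left) and between knockouts (right); dashed lines mark a log2 FC of −1 and 1. Every point on the left is below 0, from −4.40 for Fgf5 to −0.21 for Zic5, both in Hmgn1-/- mESCs, and every point on the right, where Fgf5 is not drawn, lies between −0.39 and 0.16.

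Comparisons between the knockouts asked whether losing both proteins took these genes further than losing either. Past the threshold were 24 of 13648 genes tested (0.176%) between Hmgn2-/- and Hmgn1-/- mESCs, 70 of 13710 (0.511%) between the double knockout and Hmgn1-/- mESCs, and 6 of 13816 (0.0434%) between the double knockout and Hmgn2-/- mESCs. At the adjusted p alone there were 48, 150 and 6, and the 6 past the threshold became 29 by DESeq2 and 32 with the replicate block. Fgf5 did not pass the count filter in these comparisons. In the fit of 12 libraries it had 0.70 (SE 0.49) between Hmgn2-/- and Hmgn1-/- mESCs, and for the double knockout 0.27 (SE 0.51) against Hmgn1-/- and −0.43 (SE 0.46) against Hmgn2-/- mESCs. In fits of each pair without Hmgn2-/- replicate 3 it had 0.998 (SE 0.54) between the single knockouts and −0.73 (SE 0.47) for the double knockout against Hmgn2-/- mESCs. Of the other 4 genes 0 were called by edgeR in any of the 3, and 0 by DESeq2. At an unadjusted p under 0.05 there were 0, 2 and 0 of 4, where 3.20%, 9.53% and 4.44% of all genes tested were. The 2 were Zic2 (log2 FC −0.30, SE 0.13, adjusted p = 0.469) and Zic5 (−0.39, SE 0.17, adjusted p = 0.446), lower in the double knockout than in Hmgn1-/- mESCs. Both values depended on single libraries, being −0.10 and −0.17 without Hmgn1-/- replicate 2, and −0.44 and −0.59 without Hmgn1-/- replicate 3. With the replicate block edgeR gave −0.28 (SE 0.08, adjusted p = 0.0547) for Zic2 and −0.37 (SE 0.10, adjusted p = 0.0252) for Zic5, both above the adjusted p limit. The 95% interval of the difference between the double knockout and Hmgn2-/- mESCs ran from −0.13 to 0.26 for Pou3f1 and from −0.12 to 0.45 for Otx2. It ran from −0.36 to 0.06 for Zic2 and from −0.51 to 0.37 for Zic5. Differences of 2-fold or more lie outside these 4 intervals, and smaller ones in either direction lie within them. Without Hmgn2-/- replicate 3 the differences were 0.01 for Pou3f1, 0.13 for Otx2, −0.21 for Zic2 and −0.28 for Zic5, again with 0 past the threshold.

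The contrast for departure from additivity takes the effect of losing Hmgn1 in the Hmgn2-/- line and subtracts its effect in WT mESCs, in a fit of all 12 libraries. A positive value means a less negative effect in the Hmgn2-/- line. The loss of Hmgn1 was not alike at the RNA level. Hmgn1 was at 22.3% of its WT mean in Hmgn1-/- mESCs and at 3.35% in the double knockout, and its own contrast was −2.63 (SE 0.10, adjusted p = 4.25e-10). Fgf5, with 3.97 (SE 0.62, adjusted p = 5.91e-04), and Pou3f1, with 1.403 (SE 0.11, adjusted p = 1.52e-06), were past the threshold, 2 of 5 genes against 3.48% of 14323. Otx2 had 0.93 (SE 0.16, adjusted p = 0.00127), under the adjusted p limit only, and passed the fold limit without Hmgn2-/- replicate 1 (1.03). Zic2 (0.68, SE 0.22, adjusted p = 0.0491) and Zic5 (0.14, SE 0.30, adjusted p = 0.818) were above the adjusted p limit, although with replicate number in the fit Zic2 was under it (0.6998, adjusted p = 0.00415). Without Hmgn2-/- replicate 3 the contrast was 3.67 for Fgf5, 1.35 for Pou3f1, 0.90 for Otx2, 0.63 for Zic2 and −0.06 for Zic5, with the same 2 genes past the threshold. For Pou3f1 the parts of the contrast were −1.34 for Hmgn1-/- against WT and 0.06 for the double knockout against Hmgn2-/- mESCs. The falls of Pou3f1 in the single knockouts thus did not add up in the double knockout. For Fgf5, at 2 to 12 counts in each knockout library, whether its level could have fallen further was not tested.

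Levels can be compared between genes per kb of exon. In WT mESCs Pou3f1 was highest with 25.6 CPM per kb, followed by Zic2 with 16.8, Otx2 with 5.23, Zic5 with 4.01 and Fgf5 with 1.88, and no neighbours in this order overlapped. The means of Otx2 and Zic5 changed places in the single knockouts. Pou3f1 and Zic2 averaged 10.1 and 9.41 CPM per kb in Hmgn1-/- mESCs, where their libraries overlapped, as they did in Hmgn2-/- mESCs (8.89 and 8.48). In the double knockout (9.29 and 7.63) they did not overlap. Otx2 and Zic5 overlapped in each knockout, with means of 3.06 and 3.45 CPM per kb in Hmgn1-/- mESCs, 2.64 and 2.71 in Hmgn2-/- mESCs, and 2.95 and 2.62 in the double knockout. Fgf5 was the lowest in every library, with group means of 0.0844 to 0.133 CPM per kb in the knockouts. These levels rest on the union of annotated exons (2501 bases for Fgf5, 4221 for Otx2, 3849 for Pou3f1, 2880 for Zic2 and 4889 for Zic5), which need not be the transcripts used.

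The Zic genes also varied by replicate number. Zic2 and Zic5 were each lowest in replicate 3 in all 4 genotypes, Pou3f1 in 3, and Fgf5 and Otx2 in 2. Zic5 counts came to 34.4%, 45.1% and 43.9% of Zic2 counts in the WT libraries and to 55.8% to 64.8% in Hmgn1-/- mESCs. In Hmgn2-/- mESCs they came to 63.8%, 58.1% and 39.3%, and in the double knockout to 54.2% to 61.8%. Of the knockout libraries, Hmgn2-/- replicate 3 alone fell within the WT range. Whether the fall of Zic2 and that of Zic5 differ was not tested.

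**Figure D3:**
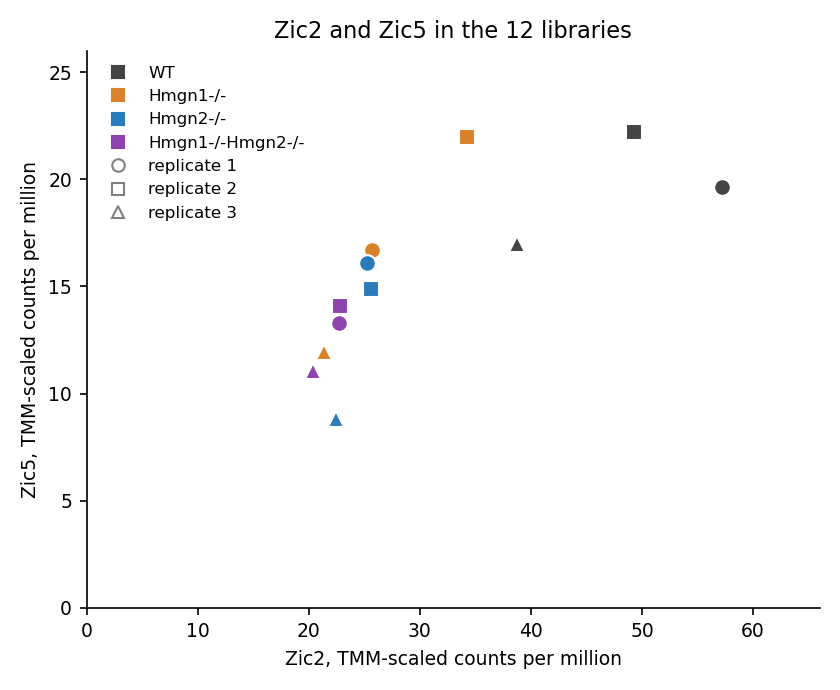
TMM-scaled CPM of Zic2 (x axis) and Zic5 (y axis) in each library, both linear from 0; colours give the genotype and marker shapes the replicate number. WT libraries lie to the right of all knockout libraries on the Zic2 axis, and the triangles, replicate 3, are lowest within each colour on both axes.

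Between Zic5 and Zic2 lies 2610035F20Rik, a long noncoding RNA gene. It averaged 6.29 CPM in WT mESCs and 3.46, 3.04 and 2.55 CPM in Hmgn1-/-, Hmgn2-/- and Hmgn1-/-Hmgn2-/- mESCs. Its log2 FC was −0.86 (adjusted p = 0.00928), −1.003 (adjusted p = 0.0222) and −1.31 (adjusted p = 0.00193), and it fell past the threshold in the double knockout. On the other side of Zic2 the next genes did not follow. Pcca, a subunit of propionyl-CoA carboxylase, had a log2 FC of 0.17, 0.16 and 0.02. Ggact had 0.44 in Hmgn1-/- mESCs (adjusted p = 0.00781) and 0.22 and 0.27 in the others, and Tmtc4 had 0.30, 0.08 and 0.12. Beyond Zic5, Clybl had −0.19, −0.23 and −0.42 (lowest adjusted p = 0.0347, in the double knockout). Taking the 3 nearest annotated neighbours that were counted, on each side of each gene, gave 25 genes, of which 13 were tested in each comparison with WT. By edgeR 0 of these 13 rose past the threshold in any comparison, and 0, 0 and 1 fell. DESeq2 called 0, 1 and 1, in each case 2610035F20Rik, and 4, 2 and 4 had an unadjusted p under 0.05, as did 5382 of 13917, 4358 of 14047 and 5499 of 14128 among all genes tested. Fhl3, a LIM domain gene beside Pou3f1, had −0.50, −0.49 and −0.55 (adjusted p = 0.00607, 0.0116 and 0.00125). Also beside Pou3f1, Rragc had −0.21, −0.18 and −0.15 and Sf3a3 0.12, 0.14 and 0.11. Around Otx2, Peli2 had 0.06, −0.02 and 0.07, Gm6498 −0.20, −0.26 and −0.47, and Exoc5 0.02, 0.12 and 0.12. Around Fgf5, Prkg2 had 0.01, −0.03 and 0.06 and Mir703 −0.20, −0.32 and −0.61. The untested neighbours, with low counts, were Gk2, Antxr2, Prdm8, Bmp3, 4930447J18Rik, Otx2os1, 4933429O19Rik, 1700057H15Rik, 4933407E24Rik, Mir697, Gm5089 and 1700108J01Rik.

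Of 19 other genes linked to the formative or primed state, all tested, 0 rose and 4 fell past the threshold in Hmgn1-/- mESCs. In Hmgn2-/- mESCs 1 rose and 3 fell, and in the double knockout 1 rose and 5 fell, with 16 of 19 at an unadjusted p under 0.05 in each, against 5382 of 13917, 4358 of 14047 and 5499 of 14128 genes tested in all. DESeq2 gave the same calls and added Fgf8 in Hmgn2-/- mESCs. The median log2 FC of the list was −0.57, −0.54 and −0.39. Its summed level did not follow, averaging 3545 CPM in WT mESCs. The sum averaged 3452, 3431 and 3466 CPM in Hmgn1-/-, Hmgn2-/- and Hmgn1-/-Hmgn2-/- mESCs. Every knockout library lay within the WT range of 3226 to 3780 CPM, and Utf1 was the most abundant gene. Pim2, a serine/threonine kinase, fell from 175 CPM in WT mESCs to 49.7, 45.3 and 41.6 CPM, a log2 FC of −1.82, −1.94 and −2.07. Wnt8a, a Wnt ligand of the early epiblast, fell from 3.42 to 0.526, 0.485 and 0.936 CPM (−2.66, −2.71 and −1.87). Grhl2, a factor that opens epithelial enhancers on the exit from the naive state, fell from 78.4 to 38.0, 34.0 and 34.2 CPM (−1.04, −1.19 and −1.19). The FGF ligands Fgf8 and Fgf15 were also lower. Fgf8 fell in Hmgn1-/- mESCs (−2.67) and the double knockout (−2.33), with −1.72 (adjusted p = 0.0135) in Hmgn2-/- mESCs, from 2.11 CPM in WT. Fgf15 fell past the threshold in the double knockout (−1.06) and had −0.90 and −0.79 in the single knockouts.

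The list did not move as a block. Tcf15, a bHLH factor linked to priming, rose past the threshold in Hmgn2-/- mESCs (1.101) and the double knockout (1.17), from 119 CPM in WT to 253 and 266 CPM, and had 0.98 in Hmgn1-/- mESCs (adjusted p = 4.13e-08). Dnmt3a, a de novo DNA methyltransferase, had 0.70, 0.83 and 0.92, under the adjusted p limit in all 3, and Lin28b, a regulator of let-7, had 0.48, 0.55 and 0.48, likewise. The related Dnmt3l, a cofactor of de novo methylation, had −0.72, −0.76 and −0.65, under the same limit, while Dnmt3b had 0.06, −0.01 and −0.14, above it. Sox3, a SoxB1 factor, had −0.95, −0.90 and −0.53, and Cldn6, a tight junction protein, had −0.73, −0.71 and −0.997, all under the adjusted p limit and short of the fold limit. Utf1 had 0.29, 0.27 and 0.21, and Tead2 0.22, 0.27 and 0.17. Negative throughout but above the adjusted p limit were Cdh2 (−0.60, −0.60 and −0.80), Sall2 (−0.57, −0.37 and −0.39), Lef1 (−0.51, −0.54 and −0.38) and Foxd3 (−0.24, −0.44 and −0.32). On the additivity contrast 4 of the 19 were past the threshold with a positive value and 0 with a negative one. Among all 14323 genes tested 427 (2.98%) were past it with a positive value and 72 (0.503%) with a negative one, so positive values prevailed there too.

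**Figure D4:**
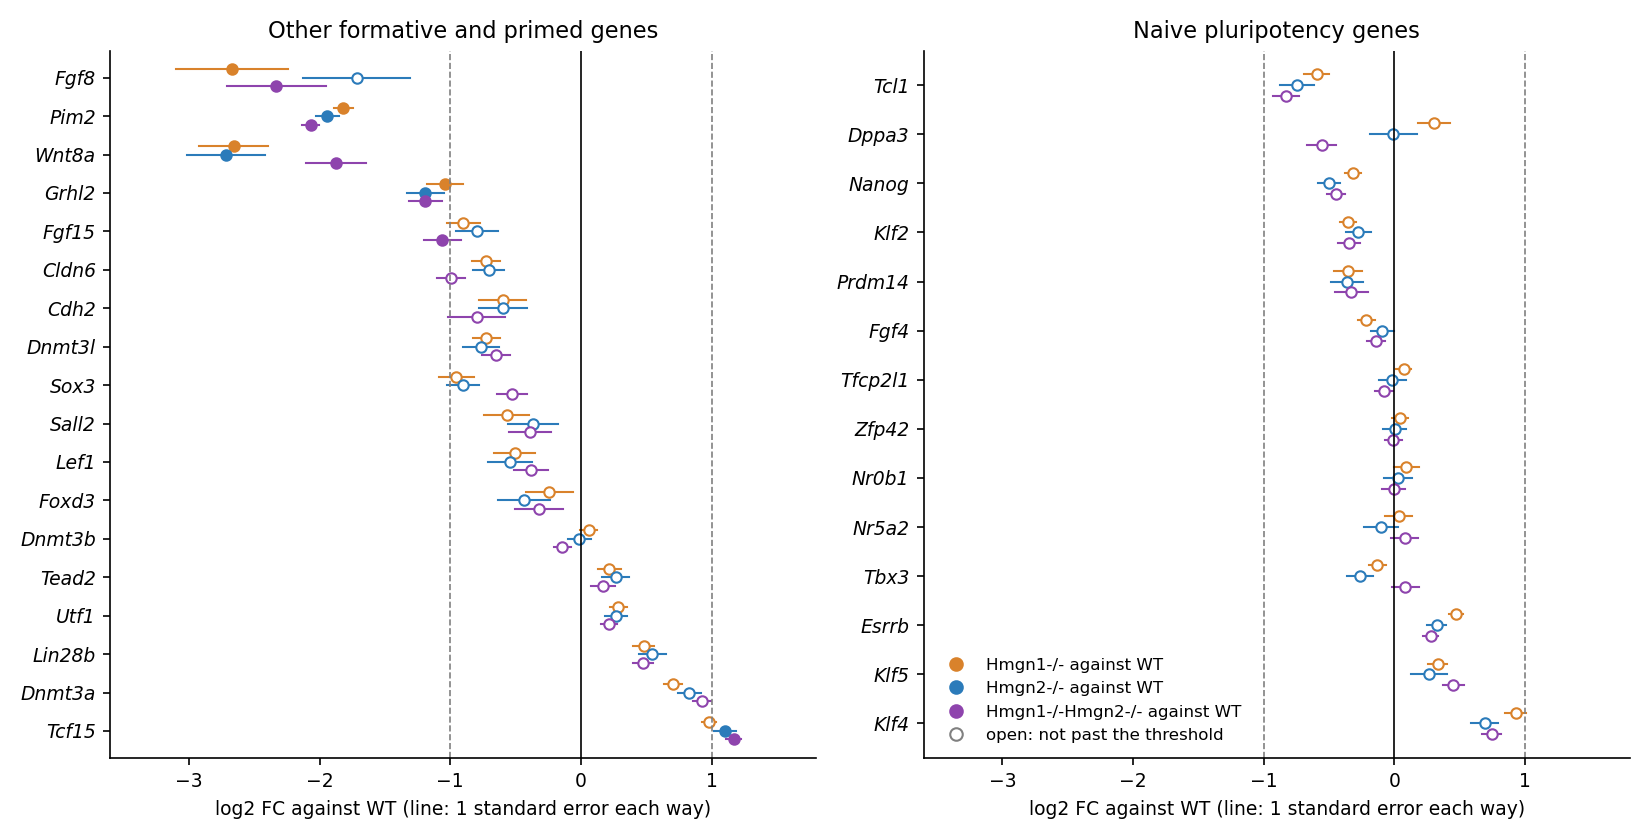
log2 FC against WT of other formative and primed genes (left) and 14 naive pluripotency genes (right), each gene with a point per comparison and a line of 1 standard error each way; filled points passed the threshold and dashed lines mark −1 and 1. Pim2, Wnt8a and Grhl2 are filled on the lower side in all 3 comparisons, Tcf15 is filled on the higher side in 2, and no naive gene is filled.

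Naive and general pluripotency genes are given beside them, with no test between lists. Of 14 naive genes 0 rose and 0 fell past the threshold by edgeR or DESeq2 in each comparison with WT, with 9, 7 and 8 at an unadjusted p under 0.05. Of all genes tested 5.98%, 5.15% and 6.30% passed in either direction. At the adjusted p alone 3, 1 and 3 of the 14 were higher, where 7.28%, 3.30% and 7.79% of all genes tested were. By the same rule 3, 2 and 4 were lower, against 10.1%, 6.66% and 10.2%. Members of the list thus shifted in both directions, and its medians were 0.04, −0.06 and −0.04. The levels of the list summed to 2542 ± 44.99, 2699 ± 52.7, 2553 ± 157 and 2565 ± 162 CPM (SD, n = 3 each) in WT, Hmgn1-/-, Hmgn2-/- and Hmgn1-/-Hmgn2-/- mESCs. All 3 Hmgn1-/- sums were above all 3 WT sums, and the other knockouts overlapped WT. Of 6 general pluripotency genes 0 passed the threshold by edgeR or DESeq2 in any comparison with WT, with 2, 1 and 2 at an unadjusted p under 0.05. Pou5f1 had −0.08, −0.06 and −0.10, Sox2 0.12, −0.01 and −0.07, Sall4 0.05, −0.07 and −0.01, and Lin28a −0.09, −0.09 and −0.04. Tdgf1, a coreceptor of Nodal, had 0.11, 0.19 and 0.16, and Dppa4 had 0.26 (adjusted p = 0.00716), 0.19 and 0.18.

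Several relatives of the 5 genes were near the limit of detection. Zic1 was tested in the double knockout alone, where its log2 FC was −0.76 (adjusted p = 0.258), and Zic4 had 0 counts in all 12 libraries, which allows at most 0.0954 to 0.173 CPM in a library. Of the Pou3f genes Pou3f3 was tested, with 0.487 CPM in WT mESCs and −0.80, −1.83 and −1.26 (lowest adjusted p = 0.0344), and Pou3f2 and Pou3f4 were not. Otx1 had 0.741 CPM in WT mESCs and −0.41, −0.62 and −0.86 (lowest adjusted p = 0.0879), and Crx was not tested. Of the genes tested in these Pou3f and Otx families 0 passed the threshold by edgeR or DESeq2 in any comparison with WT. At an unadjusted p under 0.05 were Pou3f3 in Hmgn2-/- mESCs and the double knockout, and Otx1 in the double knockout. Of 21 other FGF ligands, 11, 11 and 10 were tested, with 1, 1 and 2 rising and 2, 0 and 3 falling, and DESeq2 added Fgf8 in Hmgn2-/- mESCs. Fgf10 rose in all 3 knockouts (1.47, 1.396 and 2.45), from 0.844 CPM in WT to 4.81 CPM in the double knockout, and Fgf3 rose in the double knockout (1.25). Fgf18 fell in Hmgn1-/- mESCs (−1.57) and the double knockout (−1.27), beside Fgf8 and Fgf15 above. Of the 4 FGF receptors Fgfr3 rose in all 3 knockouts (1.11, 1.06 and 1.28), from 2.34 CPM in WT, and the other 3 did not pass. Fgf4, the main FGF of mESCs, was at 320.7 CPM in WT mESCs and had −0.22, −0.09 and −0.14.

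Markers of other cell types moved with the genotypes too, and their part in the values of the 5 genes was not tested. Of 11 primitive endoderm genes, all tested, 7, 8 and 10 rose past the threshold and 0 fell in the 3 comparisons with WT, where 125 of 13917, 109 of 14047 and 184 of 14128 genes tested rose past it. Their summed level was 335, 412 and 415 CPM in WT mESCs and 729.9, 606 and 615 CPM in Hmgn1-/- mESCs. It was 839, 756 and 568 CPM in Hmgn2-/- mESCs and 1509.9, 1488 and 1360.5 CPM in the double knockout, and none of the 11 was at 0 counts in any library. Lama1 was the most abundant on average over the 12 libraries (log2 FC 1.21, 1.20 and 2.06). The transcription factors Gata6 (2.44, 2.81 and 3.95), Gata4 (2.55, 2.83 and 3.73) and Sox17 (3.37, 3.66 and 4.75) rose in all 3. So did Pdgfra (3.53, 3.76 and 4.89), Dab2 (2.76, 3.07 and 4.43) and Cubn (3.72, 3.88 and 5.38). Sox7 rose in the double knockout (1.88), as did Col4a2 (2.14), and Col4a1 in Hmgn2-/- mESCs and the double knockout (1.12 and 2.32). In the double knockout 9 of the 11 were higher past the threshold than in Hmgn1-/- mESCs by edgeR and 9 by DESeq2, and 1 and 8 were higher than in Hmgn2-/- mESCs. Between the single knockouts 0 passed by either tool, with 1 at an unadjusted p under 0.05.

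Among all genes tested, 707 of 13917, 615 of 14047 and 706 of 14128 fell past the threshold in the 3 comparisons with WT. Of 8 trophoblast genes 7 were tested and 5 fell past it in each comparison with WT. These were Gata3 (−3.19, −3.44 and −3.03), Hand1 (−2.51, −1.93 and −2.11), Krt8 (−2.80, −2.04 and −2.14), Krt18 (−2.80, −2.19 and −2.60) and Ascl2 (−2.08, −1.64 and −1.67). The list summed to 328, 378 and 512 CPM in WT mESCs, 78.9, 77.5 and 107 CPM in Hmgn1-/- mESCs, 108, 112 and 149.9 CPM in Hmgn2-/- mESCs, and 92.5, 105 and 117 CPM in the double knockout. Krt8 was its most abundant gene, and Elf5, at 0.170 CPM in WT mESCs, was not tested. Of 8 fibroblast genes 4 were tested and 3 fell in each comparison: Col1a1 (−1.79, −1.51 and −1.81), Col1a2 (−2.86, −2.75 and −2.41) and Thy1 (−1.63, −1.62 and −1.32), the most abundant. Their sum was 21.4, 17.8 and 22.2 CPM in WT mESCs and 6.98, 5.83 and 6.46 CPM in Hmgn1-/- mESCs. It was 6.37, 7.08 and 6.90 CPM in Hmgn2-/- mESCs and 5.98, 8.99 and 7.66 CPM in the double knockout. Lum had 0 counts in every library, and Dcn, Postn and Col3a1 averaged at most 0.348 CPM in WT mESCs.

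Of 8 primitive streak genes 7 were tested. T, the streak factor Brachyury, fell in all 3 knockouts (−3.71, −2.89 and −3.37) and Evx1 in both single knockouts (−1.82 and −2.47), with −1.53 (adjusted p = 0.01004, called by DESeq2) in the double knockout, where Foxa2 rose (2.03). The list summed to 14.0, 18.8 and 19.9 CPM in WT mESCs and to 9.72 to 13.01 CPM over the 9 knockout libraries, and its most abundant gene was Eomes, with −0.65, −0.46 and −0.69. Of 14 neural genes 10, 10 and 11 were tested and 0 passed the threshold by edgeR or DESeq2, with 7, 5 and 5 at an unadjusted p under 0.05. Their sum was 205 ± 15.7, 210.1 ± 2.80, 199.3 ± 3.26 and 199.5 ± 2.39 CPM (SD, n = 3 each), with Tubb3 the most abundant.

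**Figure D5:**
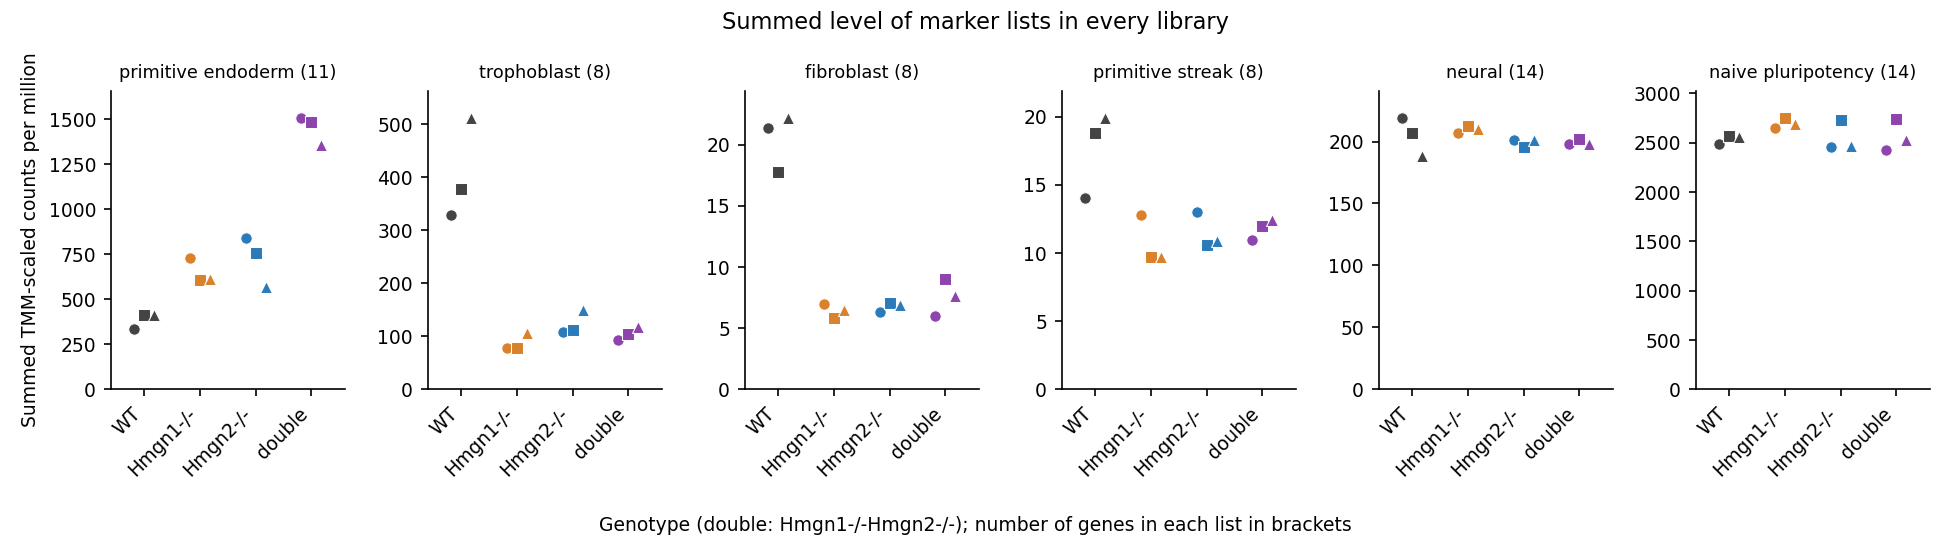
Summed TMM-scaled CPM of 6 gene lists in each library, on linear axes from 0; colours give the genotype and marker shapes the replicate number (circle 1, square 2, triangle 3). Primitive endoderm sums reach 1360.5 to 1509.9 in the double knockout against 335 to 415 in WT, trophoblast and fibroblast sums are highest in the 3 WT libraries, neural sums of WT span those of every knockout, and naive sums of Hmgn1-/- mESCs lie above those of WT.

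The genes most like each of the 5 were sought among 11551 genes tested in the fit of 12 libraries whose counts averaged 50 or more, by the root mean square difference of log2 CPM over the 12 libraries after centring each gene on its mean. For Fgf5 these were Prss23 (0.494), a serine protease, Usp26 (0.541), a ubiquitin protease, and Arl14epl (0.560). Prss23 averaged 7.06 CPM in WT mESCs and 0.353, 0.602 and 0.451 CPM in the knockouts. For Otx2 they were Pgap1 (0.113), an enzyme of GPI anchors, Fbln1 (0.132), a matrix protein, and Pgs1 (0.134), an enzyme of phospholipid synthesis. For Pou3f1 they were Gm13247 (0.112), Mical1 (0.133), an actin-oxidising enzyme, and Nxt2 (0.137). Gm13247 averaged 98.9 CPM in WT mESCs and 34.7, 29.4 and 34.5 CPM in the knockouts, close to the 98.5, 38.9, 34.2 and 35.8 CPM of Pou3f1. For Zic2 they were Sema6a (0.133), a semaphorin, Igf2bp2 (0.155), an RNA-binding protein, and Acss1 (0.163). For Zic5 they were Lama5 (0.154), a laminin chain, Robo1 (0.165), a Slit receptor, and Spata13 (0.192). Among the 5 genes themselves the closest pair was Otx2 and Zic2 (0.259), followed by Pou3f1 and Zic2 (0.269), Otx2 and Pou3f1 (0.278) and Zic2 and Zic5 (0.292), while Fgf5 was 1.12 to 1.51 from the others.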

How the data were processed

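RNA-Seq of 12 libraries, 3 for each of 4 genotypes, was analysed from the deposited counts per gene, which the authors made from poly-A paired-end reads aligned to mm10 with STAR. Their counting program, annotation and strand setting are not given in the sources used here. With R 4.3.3, edgeR 4.0.16 fitted each pair of genotypes from its 6 libraries (TMM scaling, filterByExpr, quasi-likelihood test, Benjamini-Hochberg over all genes tested), and the additivity contrast from all 12. SE is the log2 FC over the root of F, and 95% intervals use the moderated degrees of freedom. Log CPM used a prior count of 2. Gene positions and exon unions are from GENCODE M21. Scripts were tested on simulated data.

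Members and lists were chosen with earlier results of these data known. The text names the members, the edited genes, list genes past the threshold against WT, most other formative and primed genes, the general pluripotency genes, the 3 most similar genes a member and 3 neighbours on each side. Family members, most abundant genes and genes near 0 counts outside that rule were named after their values were seen. Members passing the filter were 5 of 5 against WT and 4 of 5 between knockouts.

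Library totals of 17337908 to 31448468 counts put 3 counts at 0.0954 to 0.173 CPM. Replicate numbers might pair libraries. Over 14323 genes, deviations from group means correlated at 0.0169 to 0.301 over 18 same-number pairs of libraries, 12 of them above 0.1, and at −0.266 to 0.0623 over 36 other pairs. Of 6 pairs of genotypes, the double knockout and WT alone had every same-number pair above 0.1 (0.100 to 0.167). Alternatives were RLE scaling, both a looser and a stricter filter, DESeq2 1.42.0, a fit of all 12 libraries, a replicate block and leaving out each library.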

Additional observations from a re-analysis of the deposited data

Results flagged for a closer look

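The estimated effect of losing Hmgn1 differed between the Hmgn2-/- line and WT mESCs for Fgf5 by 3.97 (SE 0.62), for Pou3f1 by 1.403 (SE 0.11) and for Otx2 by 0.93 (SE 0.16) on the log2 scale, the last short of the fold limit. A test of the difference itself over 12 libraries gave adjusted p = 5.91e-04, 1.52e-06 and 0.00127. Clone and genotype cannot be told apart in it, since each line is 1 clone, and no cause was tested. Hmgn1 RNA was also lower in the double knockout (3.35% of its WT mean) than in Hmgn1-/- mESCs (22.3%). Fgf5 had 2 to 12 counts a library in the Hmgn2-/- line and 5 to 10 in the double knockout, so its value cannot be told apart from that of a gene too low to fall again.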

How the results depend on the processing

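Against WT, 15 results for the 5 genes gave 177 values over the alternatives. All 177 were negative, 170 kept their side of the threshold, 6 passed it anew and 1 no longer passed. The exceptions came from leaving out single libraries, with ranges of −1.04 to −0.69 for Zic2 in Hmgn1-/- mESCs, −1.07 to −0.91 for Otx2 and −1.12 to −0.84 for Zic2 in Hmgn2-/- mESCs, and −1.28 to −0.99 for Zic2 in the double knockout. Fgf5 against WT has no value with at least 10 counts in every library, since its knockout counts are lower. Between knockouts and for additivity, 17 results gave 228 values, of which 219 kept their sign and side, 8 changed sign and 1 passed anew (Otx2 additivity, 1.03 without Hmgn2-/- replicate 1). Sign changes came on leaving out libraries: Hmgn2-/- against Hmgn1-/-, Zic2 (−0.29 to 0.0541); the double knockout against Hmgn1-/-, Otx2 (−0.14 to 0.0232, with 0.01 the other positive value); against Hmgn2-/-, Zic5 (−0.28 to 0.0882, also 0.02 and 0.03); and additivity, Zic5 (−0.0641 to 0.37, also −0.05). The 6 genes past the threshold between the double knockout and Hmgn2-/- mESCs became 21 with no filter beyond 1 count, 29 by DESeq2, 18 with all 12 libraries in a single fit, 32 with the replicate block, and 1 to 12 on leaving out a library. The cause was not tested. The other 6 counts of genes stayed within 1.5 times of 832, 724 and 890 against WT, 24 and 70 against Hmgn1-/- mESCs, and 499 for additivity. With the replicate block the double knockout against WT had 942 genes and no call of the 5 changed, and in the additivity contrast the adjusted p of Zic2 went from 0.0491 to 0.00415, short of the fold limit. Depth limits Fgf5 in the knockouts, at 2 to 12 counts a library.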
